A study of Homo sapiens with 6 samples.

Results

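The transcripts of the EGFR (ERBB) receptor family and of the ligands that bind them were followed in brain-metastatic lung adenocarcinoma cells with or without silencing of AKR1B10, an aldo-keto reductase. The set was chosen by gene name as 4 receptors (EGFR, ERBB2, ERBB3 and ERBB4) and 6 ligands (AREG, EREG, HBEGF, TGFA, BTC and EGF), 10 of the 58735 genes measured. The cells were PC9-BrM3, a derivative of the EGFR-mutant human line PC9 that was selected by repeated injection into the left ventricle of immunodeficient mice and recovery from brain metastases. RNA-seq was available for 3 BrM3-shAKR1B10 libraries, made from cells carrying an shRNA against AKR1B10 in the LV2 lentiviral vector, and for 3 BrM3-shNC libraries, made from cells carrying a negative control shRNA in that vector. The labels give the genotype AKR1B10 knockdown to the first group and WT to the second, and name routine culture as the treatment of both. Only 1 shRNA against AKR1B10 was sequenced, and no source used here says whether the 3 libraries of a group came from separate cultures, so the p-values below measure only the spread between these samples.

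The ERBB receptors are tyrosine kinases of the cell surface that pair with each other when a ligand binds. EGFR is the receptor whose kinase mutations drive many lung adenocarcinomas, ERBB2 has no known ligand of its own and is the preferred partner of the others, ERBB3 has a weak kinase and couples strongly to PI3K, and ERBB4 binds neuregulins. The ligands are made as membrane-anchored precursors that metalloproteases release. TGFA, AREG and EGF bind EGFR, whereas HBEGF, BTC and EREG also bind ERBB4.

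Levels are given as FPKM, a level per transcript length and library size, and differences as log2 fold changes of BrM3-shAKR1B10 against BrM3-shNC on log2(FPKM + 0.1), which understates the change of low genes. Reads on genes numbered 16964504 to 18709028 per library, and 3 reads on a gene were taken as the limit of detection, which allows for counting error and nothing else. AKR1B10 stood at 107.2 to 110.2 FPKM in the BrM3-shAKR1B10 libraries and at 772.0 to 798.7 FPKM in BrM3-shNC, or at 13.9% of the control. BrM3-shNC replicate 1 stood apart from the other libraries, with a chi-square per gene of 4.88 and 5.42 against the other control libraries, where the other pairs of replicates had 2.45 to 2.70, and values without it are given below where they end a call. All 6 epithelial markers were tested and none was called, although EPCAM and KRT7 were lower and CDH1 higher at the adjusted p, with summed levels of 3167 to 3253 FPKM and 2986 to 3348 FPKM. None of the 6 lung markers, NKX2-1 and surfactant genes among them, reached a mean of 1 FPKM, so the epithelial but not the lung identity of the line was visible. Of the fibroblast markers, COL1A2, DCN and LUM had no read, and the summed level was 1.20 to 1.35 FPKM against 2.03 to 2.05 FPKM, mostly COL1A1, which was called lower (log2 fold change -0.67, limma adjusted p = 0.00319). Leukocyte and endothelial markers summed to 3.11 to 3.33 FPKM against 2.56 to 3.03 FPKM. CDH5, the highest of them, was called higher (1.85 against 1.14 FPKM, log2 fold change 0.65, limma adjusted p = 0.00390), and CD14 stood at 0.853 against 0.901 FPKM. PECAM1 (0.272 against 0.438 FPKM) and CD68 (0.0425 against 0.161 FPKM) were lower without overlap, but were under 1 FPKM and not tested. The rest of these markers overlapped between the groups. Brain markers summed to 2.64 to 2.76 FPKM against 3.49 to 3.68 FPKM, mostly MBP, at a log2 fold change of -0.40 (limma adjusted p = 0.00225). The part of these low signals in the results was not tested.

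TGFA was the 1 member that rose past the fold threshold after AKR1B10 silencing, AREG and HBEGF fell past it, and the receptors moved by smaller amounts in different directions. The call of TGFA held in the 16 alternatives that kept the fold threshold, but AREG lost its call in 7 of 15 and HBEGF in 10 of 15. The 9 members with a mean of at least 1 FPKM were tested with limma, and calls required both an adjusted p under 0.05 and a log2 fold change beyond 0.5 in either direction. Called lower were 2 of the 9 members, against 7.45% of the 13150 genes tested, and called higher was 1 of 9, against 5.83%. At the adjusted p alone, 5 members (EGFR, ERBB3, AREG, EREG and HBEGF) were lower, against 23.1% of all genes, and 2 (ERBB2 and TGFA) were higher, against 19.4%. The same 5 and 2 members had groups whose libraries did not overlap, which held for 29.2% of all genes in the lower and 25.5% in the higher direction. These counts are given beside the shares of all genes and are not read as a result about the set. The median log2 fold change was -0.19 over the tested members, -0.13 over the 3 receptors and -0.23 over the 6 ligands, beside -0.01 over all genes tested. In these bulk samples, fewer cells expressing a gene and less RNA per cell cannot be told apart.

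EGFR (ENSG00000146648, chromosome 7, 55019021 to 55211628, plus strand of GRCh38) was the most abundant member. It measured 79.1, 81.0 and 79.8 FPKM in BrM3-shAKR1B10 libraries 1 to 3 and 89.1, 87.4 and 85.2 FPKM in BrM3-shNC libraries 1 to 3. All silenced libraries were below all control libraries, and the gap was small. EGFR fell by a log2 fold change of -0.13 (95% interval -0.20 to -0.05, limma adjusted p = 0.0154) to 91.6% of the control. With 17496 to 20475 reads per library, counting error was at most 0.756% of the level. This difference is of the size that the scaling between libraries can move, as the log2 fold change was -0.09 on TPM (limma adjusted p = 0.0550), -0.08 with the reads on genes as library size (0.0771) and -0.06 after quantile normalization (0.169). With fewer libraries the fold stayed near its size while the limma adjusted p passed 0.05, at -0.12 (0.0564) without BrM3-shAKR1B10 replicate 1 and -0.12 (0.0521) without replicate 3. EGFR ranked 415 among all genes in BrM3-shAKR1B10 and 394 in BrM3-shNC by mean FPKM.

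ERBB2 (ENSG00000141736, chromosome 17, 39687914 to 39730426, plus strand) measured 14.3, 14.0 and 14.4 FPKM in the BrM3-shAKR1B10 libraries and 11.2, 11.6 and 11.2 FPKM in BrM3-shNC. Every silenced library was above every control library. ERBB2 rose to 125.4% of the control, with a log2 fold change of 0.32 (SE 0.0346, limma adjusted p = 0.000578), which does not reach the fold threshold. ERBB3 (ENSG00000065361, chromosome 12, 56076799 to 56103505, plus strand) went the other way, with 11.04, 11.7 and 11.8 FPKM against 14.6, 14.1 and 12.9 FPKM. Again the groups did not overlap, although control library 3 came near to the silenced ones. ERBB3 fell by a log2 fold change of -0.27 (SE 0.0564, limma adjusted p = 0.00981) to 83.0% of the control, also inside the fold threshold.

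ERBB4 (ENSG00000178568, chromosome 2, 211375717 to 212538841, minus strand) was not detected at this depth. It had 0 reads in all BrM3-shAKR1B10 libraries and 1, 0 and 1 reads in the BrM3-shNC libraries, where 3 reads would be 0.0126 to 0.0136 FPKM. It was not tested, and no fold is given. The measured receptors were therefore EGFR and its partners ERBB2 and ERBB3.

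The order of the receptors differed between the groups. In BrM3-shNC ERBB3 stood above ERBB2, and in BrM3-shAKR1B10 ERBB2 stood above ERBB3, with no overlap between the libraries of these neighbors in either group. The ratio of ERBB2 to ERBB3 was 1.19 to 1.29 in the silenced and 0.764 to 0.868 in the control libraries. EGFR over ERBB2 was 5.53 to 5.80 against 7.55 to 7.96. Of the summed receptor FPKM, EGFR held 75.3% to 75.9% in BrM3-shAKR1B10 and 77.3% to 77.9% in BrM3-shNC, ERBB2 held 13.1% to 13.7% against 9.73% to 10.2%, and ERBB3 held 10.6% to 11.1% against 11.8% to 12.7%. The sum itself was 104.4 to 106.6 FPKM against 109.3 to 114.9 FPKM. These shares and ratios describe the libraries and were not tested.

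EGFR-AS1, PGAP3 and MIEN1 overlap receptors on the opposite strand. How reads from the shared bases were counted is not known, since the strand setting of the counting was not given in the sources used here. EGFR-AS1, an antisense transcript that shares 186 exon bases with EGFR (1.49% of its length), averaged 1.47 ± 0.175 FPKM after silencing and 0.921 ± 0.121 FPKM in the control (SD, n = 3 each), a difference of 0.62 on the log2 scale (limma adjusted p = 0.0261), opposite to that of EGFR. PGAP3, which acts on GPI anchors, shares 194 bases (1.88%) with ERBB2 and rose with it, by a log2 fold change of 0.39 (limma adjusted p = 0.00314). MIEN1 shares 571 bases (5.53%) with ERBB2 and had a log2 fold change of -0.05 (limma adjusted p = 0.679). On the strand of ERBB3, AC034102.2 shares 31 bases with it and had no read. The part of these overlaps in the receptor values was not tested.

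**Figure D1:**
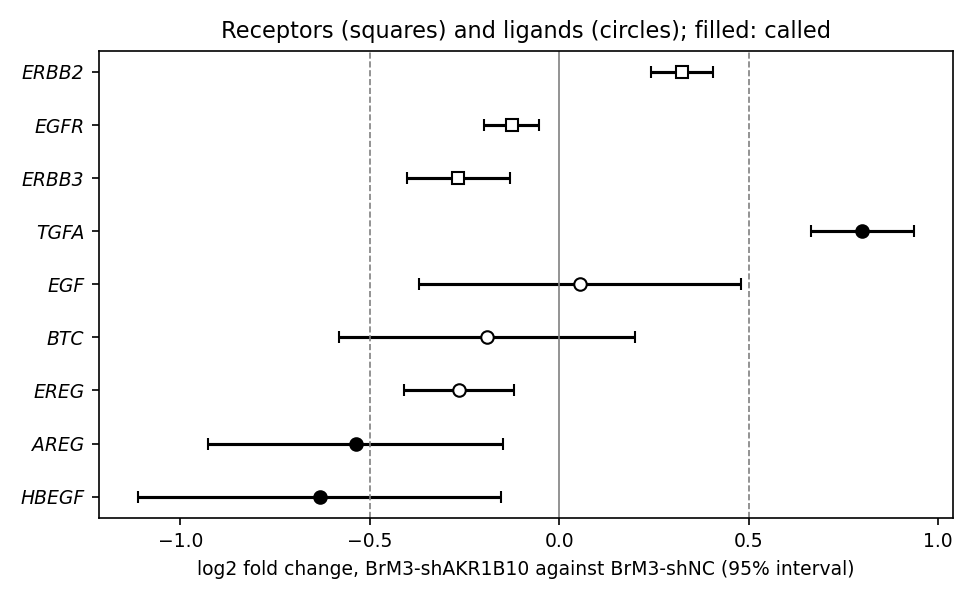
Log2 fold change of each tested member, BrM3-shAKR1B10 against BrM3-shNC, with its 95% interval from limma, squares for receptors and circles for ligands. Filled symbols mark the called members TGFA (0.80), AREG (-0.54) and HBEGF (-0.63), dashed lines mark the fold threshold, and the intervals of BTC and EGF cross 0.

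TGFA (ENSG00000163235, chromosome 2, 70447280 to 70554193, minus strand), the transforming growth factor alpha that is a high-affinity ligand of EGFR, was the most abundant ligand in both groups. It measured 6.92, 6.34 and 6.83 FPKM after silencing (BrM3-shAKR1B10) and 3.94, 3.62 and 3.84 FPKM in the control (BrM3-shNC), from 568 to 607 and 304 to 359 reads. The groups were far apart, with the lowest silenced library above the highest control library. TGFA rose to 176.1% of the control, with a log2 fold change of 0.80 (95% interval 0.66 to 0.94, limma adjusted p = 0.000115). Its call held under each scaling, filter and left-out library tried.

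HBEGF (ENSG00000113070, chromosome 5, 140332843 to 140346631, minus strand), the heparin-binding ligand that also serves as the diphtheria toxin receptor, measured 1.46, 2.18 and 2.52 FPKM in the BrM3-shAKR1B10 libraries and 3.56, 2.76 and 3.23 FPKM in BrM3-shNC. The silenced libraries were all lower, but they spread widely, with replicate 1 lowest. HBEGF fell by a log2 fold change of -0.63 (95% interval -1.11 to -0.15, limma adjusted p = 0.0425) to 64.6% of the control, from 78 to 135 against 141 to 197 reads. The call is at the edge of what these libraries can show. It was lost without BrM3-shAKR1B10 replicate 1 (-0.42, limma adjusted p = 0.0578) or replicate 2 (-0.69, 0.0717), and without BrM3-shNC replicate 1 (-0.55, 0.116), 2 (-0.73, 0.0529) or 3 (-0.62, 0.0996). It was also lost with the reads on genes as library size (-0.59, 0.0518) and with a pseudocount of 1 (-0.46).

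AREG (ENSG00000109321, chromosome 4, 74445134 to 74455009, plus strand), amphiregulin, measured 1.96, 1.51 and 1.51 FPKM in the BrM3-shAKR1B10 libraries and 2.88, 2.01 and 2.49 FPKM in BrM3-shNC. The highest silenced and the lowest control library nearly touched. AREG fell by a log2 fold change of -0.54 (95% interval -0.93 to -0.15, limma adjusted p = 0.0367) to 67.4% of the control. Only 44 to 87 reads stand behind each value, and counting error alone was 15.1% in the library with the fewest AREG reads. The call was lost without BrM3-shAKR1B10 replicate 2 (-0.48, limma adjusted p = 0.102) or 3 (-0.48, 0.103), and without BrM3-shNC replicate 1 (-0.42, 0.101) or 3 (-0.52, 0.0925). Without BrM3-shNC replicate 1, which held the highest AREG and HBEGF values, no member was called lower. The same was seen without BrM3-shNC replicate 3 and without BrM3-shAKR1B10 replicate 2. With the reads on genes as library size, AREG was at -0.49 (0.0466 in limma), inside the fold threshold.

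EREG (ENSG00000124882, chromosome 4, 74365143 to 74388751, plus strand), epiregulin, was the steadiest of the ligands between replicates. It measured 2.40, 2.49 and 2.46 FPKM in the BrM3-shAKR1B10 libraries and 3.003, 2.97 and 2.90 FPKM in BrM3-shNC, with no overlap. EREG fell by a log2 fold change of -0.26 (SE 0.0607, limma adjusted p = 0.0135) to 82.7% of the control, which is inside the fold threshold. BTC (ENSG00000174808, chromosome 4, 74744759 to 74794686, minus strand), betacellulin, measured 2.55, 2.36 and 1.66 FPKM against 2.71, 2.41 and 2.32 FPKM. The groups overlapped, and the log2 fold change of -0.19 did not pass (95% interval -0.58 to 0.20, limma adjusted p = 0.388). It moved to -0.011 without BrM3-shAKR1B10 replicate 3 and to -0.31 without replicate 1. EGF (ENSG00000138798, chromosome 4, 109912884 to 110012266, plus strand), the ligand that names the family, measured 0.951, 1.20 and 1.25 FPKM against 1.23, 0.975 and 1.06 FPKM. Its values interleaved between the groups, with a log2 fold change of 0.06 (95% interval -0.37 to 0.48, limma adjusted p = 0.825).

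The shares of TGFA, HBEGF, AREG and EREG among the ligand transcripts separated the groups, while the total of the ligands did not. Summed over the 6 ligands, the level was 16.1 to 16.2 FPKM in the BrM3-shAKR1B10 libraries and 14.8 to 17.3 FPKM in BrM3-shNC. TGFA held 39.4% to 42.6% of that sum in the silenced and 22.8% to 24.6% in the control libraries. HBEGF held 9.01% to 15.5% against 18.7% to 20.5%, AREG held 9.28% to 12.1% against 13.6% to 16.6%, and EREG held 14.8% to 15.5% against 17.3% to 20.1%. TGFA was 2.55 to 2.89 times EREG after silencing and 1.22 to 1.32 times EREG in the control. BTC (10.2% to 15.7% against 14.6% to 16.4%) and EGF (5.86% to 7.71% against 6.61% to 7.09%) held shares that overlapped between the groups. Since the shares of a library sum to 100%, the rise of one lowers the others, so the shares are not independent of each other. Ordered by mean level, the control ligands ran from TGFA through HBEGF, EREG, BTC and AREG to EGF, where HBEGF and EREG, and BTC and AREG, overlapped as neighbors. After silencing the order was TGFA, EREG, BTC, HBEGF, AREG and EGF, and each neighboring pair from EREG to AREG overlapped.

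**Figure D2:**
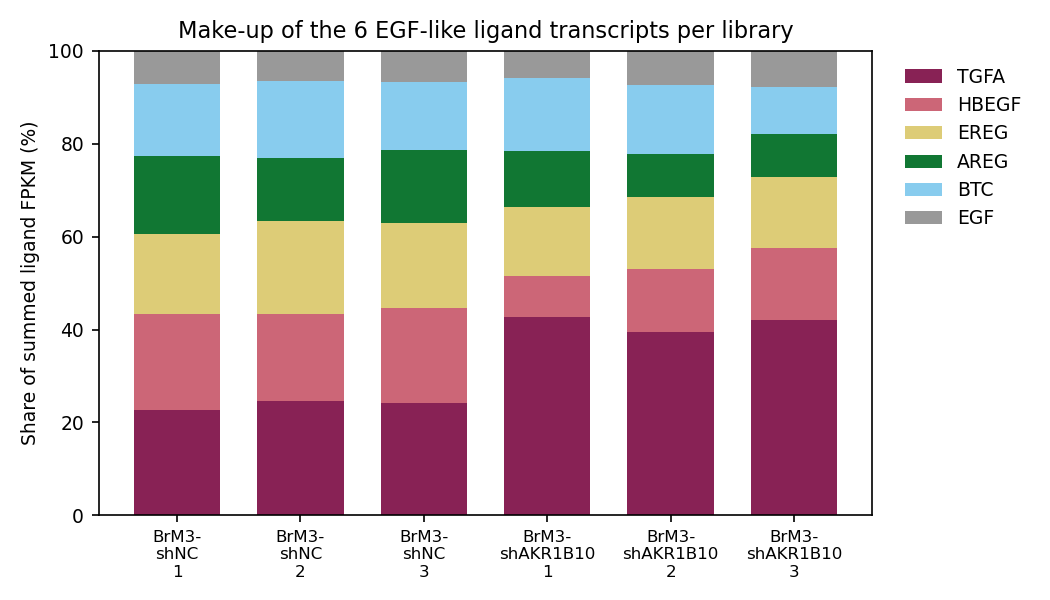
Share of each of the 6 ligands in the summed ligand FPKM of a library (percent, stacked bars from 0 to 100, 1 bar per library). The TGFA segment is 39.4% to 42.6% in the BrM3-shAKR1B10 bars and 22.8% to 24.6% in the BrM3-shNC bars.

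The ligands that were not in the set were scarce. EPGN (ENSG00000182585, chromosome 4, 74308473 to 74315307, plus strand), epigen, measured 1.09, 0.733 and 0.933 FPKM in the BrM3-shAKR1B10 libraries and 0.240, 0.228 and 0.272 FPKM in BrM3-shNC, from 24 to 35 reads against 7 to 9 reads. The silenced libraries were all higher, at 0.919 ± 0.180 FPKM against 0.247 ± 0.0225 FPKM (SD, n = 3 each), a 3.72-fold ratio of the means. Its mean stayed under 1 FPKM, so it was not tested in the filtered fit, and without the filter its log2 fold change was 1.54 (limma adjusted p = 0.00729). NRG1, the neuregulin that binds ERBB3 and ERBB4, averaged 0.135 against 0.0821 FPKM (unfiltered limma adjusted p = 0.532), and NRG4 averaged 0.0970 against 0.115 FPKM (0.761). NRG2 had 1, 2 and 0 reads in BrM3-shAKR1B10 and no read in BrM3-shNC, and NRG3 had no read.

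EPGN, EREG, AREG and BTC lie side by side on chromosome 4, within 486214 bases, and are the 4 protein-coding genes among the 6 annotated there. The gap between EPGN and EREG is 49835 bases, that between EREG and AREG is 56382 bases, and that between AREG and BTC is 289749 bases. EGF lies 35118197 bases further along. In the fit without a filter, the 1 fit that holds all 4, EPGN was higher (adjusted p = 0.00729 in limma) and EREG lower (-0.26, 0.0287), whereas AREG (-0.54, 0.0868) and BTC (-0.19, 0.532) did not pass. The bases before the RefSeq start sites of the EPGN, EREG and AREG genes are shown because EPGN and EREG, which are neighbors, differed in opposite directions and AREG, the next gene, was called lower in the filtered fit alone, and those of HBEGF because it was the other called ligand of lower level (RefSeq, GRCh38.p14, coding strand of each gene, 120 bases that end at the base before the start). Capitals mark matches on either strand to the cAMP response element TGACGTCA, the AP-1 site TGANTCA, the GC box GGGCGG and the TATA box TATAAA. The windows are chr4:74308350-74308469 for EPGN, chr4:74365025-74365144 for EREG, chr4:74445016-74445135 for AREG (all plus strand) and chr5:140346604-140346723 for HBEGF (minus strand).
EPGN: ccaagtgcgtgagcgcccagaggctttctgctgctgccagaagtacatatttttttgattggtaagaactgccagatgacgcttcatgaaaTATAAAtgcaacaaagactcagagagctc
EREG: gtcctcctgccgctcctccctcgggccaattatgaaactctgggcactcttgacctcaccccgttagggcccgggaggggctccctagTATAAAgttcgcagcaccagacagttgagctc
AREG: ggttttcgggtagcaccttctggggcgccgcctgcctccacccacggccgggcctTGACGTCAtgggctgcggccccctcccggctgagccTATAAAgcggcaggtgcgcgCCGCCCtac
HBEGF: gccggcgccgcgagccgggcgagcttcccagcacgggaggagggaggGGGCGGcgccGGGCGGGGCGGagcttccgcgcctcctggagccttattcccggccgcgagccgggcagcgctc

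A TATA box stood 29 bases before the start of EPGN, 32 before that of EREG and 29 before that of AREG, and 10.7% of the 35116 RefSeq windows of 250 bases hold one. The window of BTC, the fourth gene of the cluster, held none of the 4 motifs. AREG also held a cAMP response element 65 bases before its start, a motif found in 1.65% of windows, and a GC box 9 bases before it. HBEGF held no TATA box but GC boxes at 73, 63 and 58 bases, the last pair overlapping, and further upstream at 176 and 163 bases. GC boxes are in 42.6% of windows. Of the other ligands, EGF held an AP-1 site at 17 bases, a motif in 6.57% of windows. TGFA has 2 entries, of which 1 held GC boxes at 204, 131 and 73 bases and the other held none of the motifs. Of the receptors, EGFR has 2 entries, of which 1 held GC boxes at 204 and 36 bases and the other, downstream, AP-1 sites at 232 and 136 and TATA boxes at 146 and 36 bases. ERBB2 held an AP-1 site at 222 bases and ERBB4 a GC box at 226 bases. RefSeq and GENCODE 29 place some starts differently, so that both TGFA windows, those of BTC and ERBB2 and the downstream EGFR window hold 116 to 192 of their 250 bases in GENCODE exons, and 28 of the HBEGF bases shown are exonic there too. Of the 10 members, 9 matched an entry, and ERBB3 did not. A match describes the letters of the window and no more.

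Genes that act on the receptors and ligands were taken from 4 lists by role, 66 genes of which 61 were tested. Called lower in limma were 3 of the 61 (4.92%, against 7.45% of all genes) and called higher 0 (against 5.83%). At the adjusted p alone, 16 were lower (26.2%, against 23.1% of all genes) and 11 higher (18.0%, against 19.4%), near the shares of all genes. In the list of ligand release (9 of 11 tested, median log2 fold change 0.11), RHBDF2, the inactive rhomboid iRhom2 that carries ADAM17 to the cell surface, fell from 6.89 ± 0.0872 to 4.83 ± 0.0314 FPKM (SD, n = 3 each). Its log2 fold change of -0.50 (limma adjusted p = 0.000158) lies at the fold threshold, and the call was lost in 5 of 16 alternatives, among them TPM (-0.47) and the fit without BrM3-shNC replicate 1 (-0.50). The ADAM metalloproteases that passed the adjusted p were all higher. ADAM17, the main releaser of TGFA and AREG, had a log2 fold change of 0.11 (limma adjusted p = 0.0440), ADAM10, which releases EGF and BTC, 0.35 (0.000814) and ADAM9 0.28 (0.00210). NRDC, nardilysin, which promotes the release of HBEGF, was lower at -0.23 (limma adjusted p = 0.00118), ADAM12 was at -0.01 (0.954), and ADAM19 averaged 0.731 against 0.890 FPKM and was not tested.

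None of the adaptors was called (14 of 15 tested, median -0.05, 2 lower and 2 higher at the adjusted p). PTPN11, the phosphatase SHP2 that relays receptor signals to RAS, had the largest change, from 24.1 ± 1.01 to 17.8 ± 0.483 FPKM (SD, n = 3 each), which is a log2 fold change of -0.44 (limma adjusted p = 0.000426). Among the attenuators (16 of 18 tested, median 0.04, 5 lower and 4 higher at the adjusted p), PTPN12, a tyrosine phosphatase known to act on ERBB receptors, was called lower. It measured 10.5, 10.8 and 9.75 FPKM in the BrM3-shAKR1B10 libraries and 18.5, 18.5 and 18.4 FPKM in BrM3-shNC, with a log2 fold change of -0.83 (SE 0.0445, limma adjusted p = 3.86e-05), with a wide gap between the groups. ERRFI1 (MIG6), an inhibitor of the EGFR kinase, was at -0.33 (limma adjusted p = 0.000711) and the ubiquitin ligase CBL at -0.33 (0.00167), whereas the ubiquitin ligase NEDD4 was at 0.48 (0.000278) and LRIG2 at 0.41 (0.00187).

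Of the genes of receptor trafficking and folding (22 of 22 tested, median -0.05, 7 lower and 2 higher at the adjusted p), HSP90AA1, the inducible HSP90 chaperone that holds mutant EGFR and ERBB2 as clients, was called lower. It measured 476.5, 510.1 and 481.9 FPKM in the BrM3-shAKR1B10 libraries and 798.9, 728.7 and 735.3 FPKM in BrM3-shNC, with a log2 fold change of -0.62 (SE 0.0491, limma adjusted p = 0.000166). Its paralog HSP90AB1 was lower as well, at -0.40 (0.000515). RAB7A, the GTPase of late endosomes, was at -0.31 (0.000321) and RAB5A, that of early endosomes, at 0.28 (0.00376). The lists were not chosen independently of these data.

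**Figure D3:**
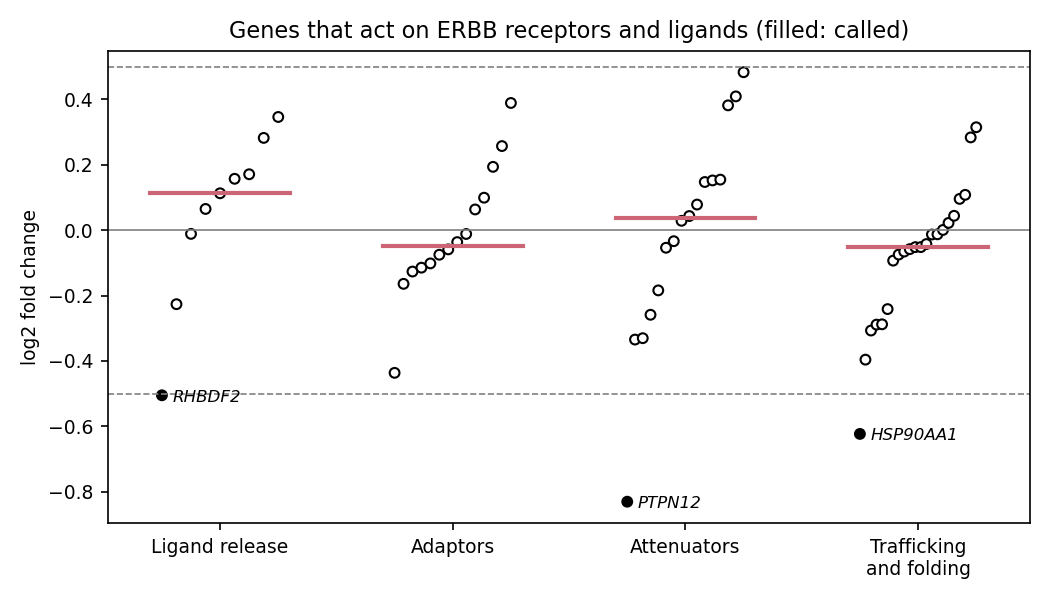
Log2 fold change (BrM3-shAKR1B10 against BrM3-shNC) of each tested gene in the 4 lists by role, 1 point per gene, with a red line at the list's median and filled points for called genes. The medians lie between -0.05 and 0.11, and the called genes are RHBDF2, PTPN12 and HSP90AA1, all lower.

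By Pearson correlation of log2(FPKM + 0.1) over the 6 libraries, the tested genes most like EGFR were FUCA2 (r = 0.998), WDR27 (0.998) and CEP162 (0.997). Those most like TGFA were IRX6, CUX1 and TGFBR3 (0.998 each). With 2 groups of 3 libraries, a correlation mostly follows the difference between the groups, and 772 genes passed 0.95 with EGFR and 1099 with TGFA, so these names describe likeness in these libraries only.

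**Figure D4:**
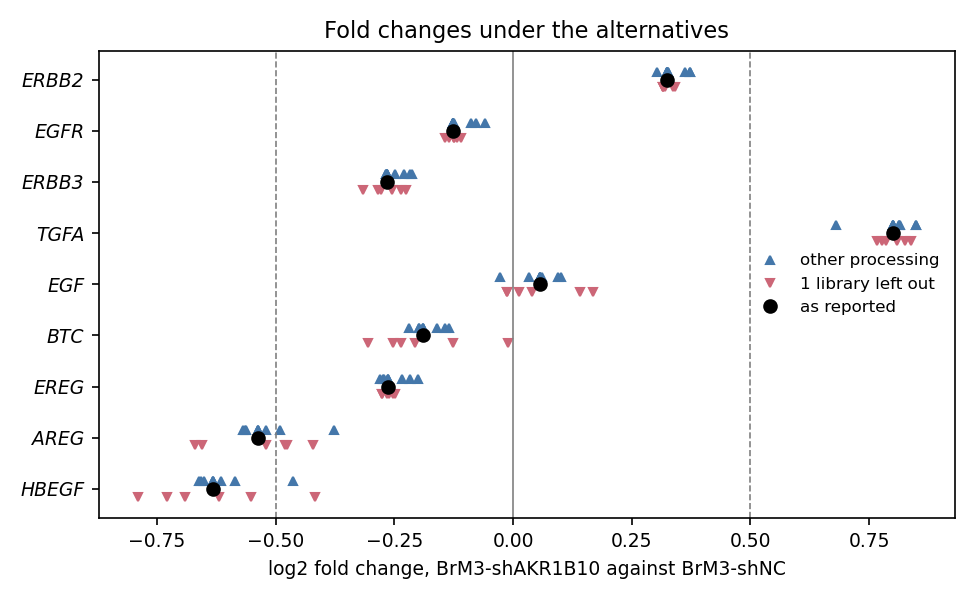
Log2 fold change of each tested member under other processing (blue triangles), with 1 library left out (red triangles) and as reported (black circles). TGFA stayed between 0.68 and 0.85, HBEGF ranged from -0.79 to -0.42 and AREG from -0.67 to -0.38, and EGF lay on both sides of 0.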

How the data were processed

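Gene expression was measured by RNA-seq of poly-A RNA in 3 BrM3-shAKR1B10 and 3 BrM3-shNC libraries, grouped by the sample labels. Reads were aligned with HISAT2 2.0.5 and counted with featureCounts 1.5.0-p3, per the submitters' processing notes. The authors deposited 1 table of FPKM per gene and library, with gene length and position. The positions match GENCODE 29 (GRCh38) for 58735 of 58735 genes, and the build itself was not given in the sources used here. FPKM times gene length, divided by the smallest step in each library, gave back whole read numbers (within 0.05 reads) for 100% of values. The library size that this step implies was 101.9% to 102.4% of the reads on genes in BrM3-shAKR1B10 and 98.1% to 99.7% in BrM3-shNC, so the deposited values carry a scaling between libraries. These served for depth, for counting error and for limma's voom as an alternative.

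The comparison used log2(FPKM + 0.1) of genes whose FPKM averaged at least 1 over all libraries, and was fitted by limma 3.58.1 under R 4.3.3 (eBayes with trend, Benjamini-Hochberg over the 13150 genes tested, two-sided). Calls required an adjusted p under 0.05 together with a log2 fold change beyond 0.5 in either direction. The script was tested on simulated data. The replicates of a group differed beyond sampling noise (chi-square per gene 2.45 to 2.70, and 4.88 and 5.42 for the pairs with BrM3-shNC replicate 1) and each was counted as 1 sample.

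The members and lists were chosen with earlier results of these data known. Named were all members, the other ERBB ligands, AKR1B10, the genes that share exon bases with a member (the other 7 overlapping genes share none), each called list gene (with none called, the gene with the largest change) and the 3 genes most correlated with EGFR and TGFA. The other list genes, ADAM12 and ADAM19 included, and the markers given singly were named after their values were seen. Alternatives tried were a pseudocount of 1 or 0.01, no filter, a mean of at least 5 FPKM, TPM, quantile normalization, eBayes without trend, voom, the reads on genes as library size (chosen after seeing the data), the replicate number as a block, other fold thresholds and each library left out.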

Additional observations from a re-analysis of the deposited data

How the results depend on the processing

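The alternatives left the direction of each tested member as reported, except for EGF, which turned to -0.027 after quantile normalization, -0.014 without BrM3-shAKR1B10 replicate 3 and -0.012 without BrM3-shNC replicate 2 (-0.014 to 0.17 with 1 library left out). Members called lower (2 as reported) numbered 0 with a pseudocount of 1, 0 without a filter, 0 at a mean of at least 5 FPKM (where no ligand but TGFA could be tested), 1 with eBayes without trend, 0 with the reads on genes as library size (chosen after seeing the data), 5 with no fold threshold and 0 above a log2 fold change of 1, and 0 to 1 with 1 library left out. Members called higher (1 as reported) numbered 2 with no fold threshold and 0 above 1. HBEGF lost its call in 10 of 15 alternatives and AREG in 7 of 15. TGFA kept its call in the 16 that kept the fold threshold, and its 0.80 is not past a threshold of 1. Over all genes, the lower calls (980 as reported) numbered 532 at a mean of at least 5 FPKM, 3044 with no fold threshold and 205 above 1. The higher calls (766 as reported) numbered 497 with a pseudocount of 1, 290 at a mean of at least 5, 2548 with no fold threshold and 168 above 1. The called list genes (3 as reported) numbered 27 with no fold threshold and 0 above 1, and 2 to 4 with 1 library left out. Their alternatives were chosen after seeing the data. The split over all genes was 873 lower and 902 higher on TPM, and 820 and 925 with the reads on genes as library size.

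With the replicate block, 1 member was called lower (AREG, limma adjusted p = 0.0206) and HBEGF was not (0.0762), with 967 lower and 719 higher calls over all genes. Libraries with the same number deviated from the means of their groups with correlations of -0.0155, 0.00388 and 0.00383, so they shared no deviation. These values cannot show whether libraries of the same number were prepared together. AREG and HBEGF rest on 44 to 197 reads per library, with a counting error of up to 15.1% and 11.3% in the libraries with the fewest reads on each gene.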
